A study of Mus musculus with 8 samples.

Results

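A set of 10 genes that mark the epithelium of the choroid plexus, or that encode proteins it secretes or displays, were followed through hippocampal RNA-seq of wild-type (WT) mice and mice labelled KO, from a study of the tyrosine kinase Pyk2. The gene knocked out was taken to be that of Pyk2, which the title of the study names and the sample labels do not. The genes were Enpp2, Kl, F5, Sostdc1, Lbp, Wfikkn2, Calml4, Prlr, Otx2 and Lmx1a, taken by symbol from the deposited gene tables. All 10 were found, 1 row each, among 55188 genes. The mice were C57BL/6, with genotype given as wild type or KO, and every sample of both groups carries the description transgenic mouse. Neither age nor an allele was named in the labels. Hippocampus was collected before fear conditioning, and the titles number 2 WT units (WT1, WT2) and 2 KO units (KO1, KO2), each sequenced as 2 technical replicates, which makes 8 libraries. Each numbered unit was taken as 1 animal (n = 2 per group), although no label says that the units are separate mice, so p-values speak only for the variation among these 4 units, which may be technical.

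The choroid plexus is a secretory tissue of the brain ventricles. Its epithelium, a derivative of the dorsal midline of the neural tube, makes cerebrospinal fluid and releases carrier proteins, enzymes and growth factor antagonists into it. Part of it lies along the fimbria, next to the hippocampus, so dissected hippocampus can carry some of it. Otx2 and Lmx1a are transcription factors of this lineage, and the other genes encode enzymes, binding proteins and receptors that the mature epithelium produces.

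Promoter sequence was described because 2 of the 10 genes encode homeodomain transcription factors. Whether these factors act on the 10 genes was not tested. RefSeq promoter windows (GRCm38.p6, the assembly that mm10 represents) were held for 7 of the 10 genes (not Enpp2, Sostdc1 and Lbp), 12 windows in all, each cut here to the 250 bases before a transcription start. Otx2 and Prlr had more than 1 window each, some Otx2 windows overlapped, and some windows held annotated exons of their own gene. The windows are thus not independent, and their shares were not tested. The letters TAATCC, the core bound by Otx-type homeodomains, and TAATTA, a general homeodomain core, were searched on both strands. They share the letters TAAT, so matches of both can overlap, and TAATTA is its own reverse complement. TAATCC occurred in 1 of the 12 windows and in 6.25% of all 32851 windows of that length. TAATTA occurred in 2 of the 12 and in 4.84% of all windows. Both windows with a match belonged to Otx2 itself. The windows below, 5′ to 3′ along the gene with matches in capitals, show the Otx2 start farthest upstream of those held, with 1 match, and the windows of Kl and F5, which had none.
Otx2, chr14:48667645-48667894, minus strand: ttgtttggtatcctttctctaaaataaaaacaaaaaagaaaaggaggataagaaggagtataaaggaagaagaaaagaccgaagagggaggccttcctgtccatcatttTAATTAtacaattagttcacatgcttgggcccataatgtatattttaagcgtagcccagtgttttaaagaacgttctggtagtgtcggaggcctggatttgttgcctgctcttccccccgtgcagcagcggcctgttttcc
Kl, chr5:150952357-150952606, plus strand: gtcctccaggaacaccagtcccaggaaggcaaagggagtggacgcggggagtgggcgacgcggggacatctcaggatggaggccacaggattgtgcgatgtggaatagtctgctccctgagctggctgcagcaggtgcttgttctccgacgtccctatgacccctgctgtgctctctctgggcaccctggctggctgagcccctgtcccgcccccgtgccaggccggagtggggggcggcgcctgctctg
F5, chr1:164151585-164151834, plus strand: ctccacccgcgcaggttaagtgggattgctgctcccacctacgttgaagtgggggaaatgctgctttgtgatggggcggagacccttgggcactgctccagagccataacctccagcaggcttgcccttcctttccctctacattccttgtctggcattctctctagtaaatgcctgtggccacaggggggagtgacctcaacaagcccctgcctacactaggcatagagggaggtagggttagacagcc

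The single TAATCC match read on the opposite strand, as GGATTA, 211 bases before another Otx2 start, in a window that also held TAATTA 3 times, none of them overlapping it. That window also held annotated exon sequence of Otx2. The 30-base surroundings of the TAATCC match are shown because this was the only Otx-type core found among the windows of these genes.
Otx2, chr14:48665303-48665332, minus strand: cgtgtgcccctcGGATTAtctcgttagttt

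Values are FPKM, fragments scaled to transcript length and to the library total, so that levels of different genes can be set side by side. The depth of each library is unknown, and the precision of a value was read from its deposited confidence limits. The upper limit lay above the value by 3.29% for Enpp2 in the best case and by 69.3% for Lmx1a in the worst. The summed FPKM of a library was 489153 to 506251. Pyk2 is encoded by Ptk2b, which checks the labels: it was at 202 to 232 FPKM in the 4 WT libraries and at 264 to 279 FPKM in the 4 libraries labelled KO. The targeted transcript was thus not lower under the KO label. A whole-gene value cannot show whether an exon or the protein is lost, and every direction below follows the labels as given. All 9 hippocampal excitatory neuron markers were measured and tested, led by Camk2a at 706 to 841 FPKM per animal. The tables of KO1 listed genes in an order unlike the rest: 0.816% and 2.05% of their rows were followed by the same gene as in the first WT1 table, against 48.7% to 49.6% in the other 5. Whether they were processed differently was not tested.

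Every one of the 10 genes was lower in both animals labelled KO than in both WT animals. The animals fell in the same order for all 10, WT2 highest, then WT1, KO2 and KO1. Over all 16667 genes tested, both KO animals lay below both WT animals for 30.7%, and that full order held for 11.9%. Lmx1a met the minimum for testing, 0.5 FPKM in 2 animals, through the WT animals alone, so it lends no support to the counts of 10 here. On the scale of mean FPKM, WT exceeded KO by 2.42 times (Wfikkn2) to 6.40 times (Calml4), with a median of 4.96. In limma, a linear model that shares variance information across genes, 0 of the 10 passed a Benjamini-Hochberg adjusted p of 0.05 over all genes, where 0.054% of all genes passed in either direction and the same 0.054% in the lower one. All 10 had an unadjusted p under 0.05 in the lower direction, where 11.4% of all genes did, against 4.11% in the higher direction. The split of all genes at that level moved with scaling, from 73.6% lower as deposited to 54.2% after median-of-ratios scaling and 53.3% after quantile normalization, while all 10 genes stayed lower. The median difference of log2(FPKM + 1), KO minus WT, was -2.16 for the 10 genes and -0.02 for all genes tested. An exact two-sided permutation test of each gene gave p = 0.333, the smallest that 2 against 2 animals allow. In a bulk sample, fewer cells of a type and less RNA per cell cannot be told apart.

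**Figure D1:**
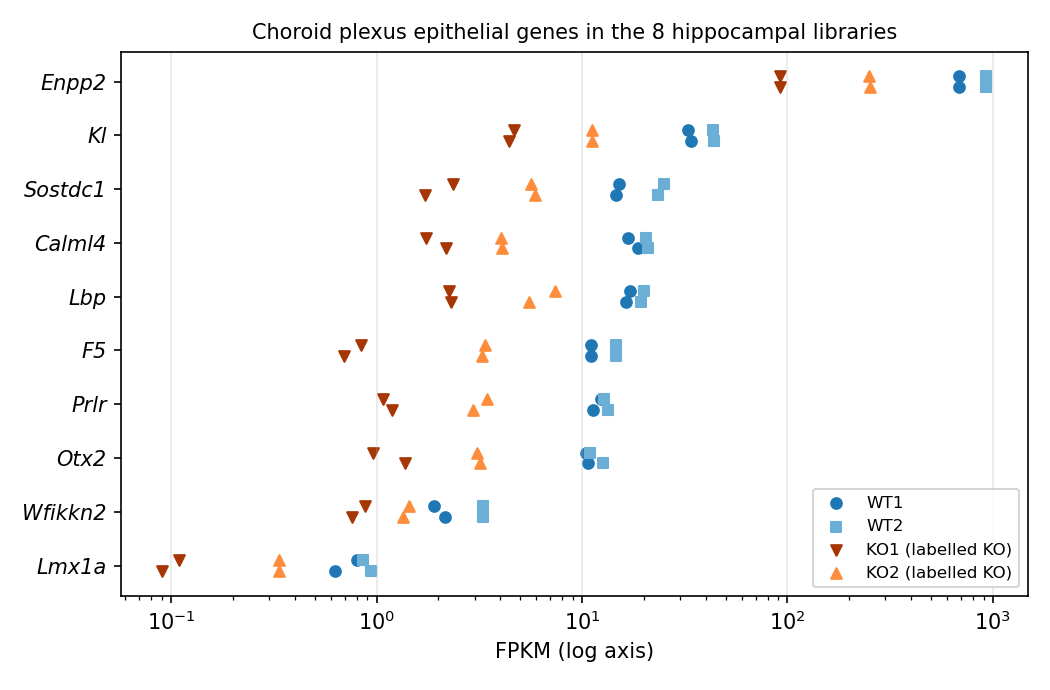
FPKM on a log axis for the 10 genes (rows, ordered by WT mean) in each of the 8 libraries, with 1 symbol per animal and 2 points per animal for its technical replicates. In every row the KO1 points lie lowest, then KO2, and all WT points lie to the right of them.

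The transcription factors set the identity of the lineage. Otx2, which specifies choroid plexus epithelium and maintains it in the adult (ENSMUSG00000021848, chromosome 14, 48657677 to 48673819, mm10, protein-coding), was at 10.5 and 10.8 FPKM in the WT1 libraries and at 10.9 and 12.7 in those of WT2. It was at 0.960 and 1.38 FPKM in the KO1 libraries and at 3.08 and 3.20 in those of KO2. No WT library overlapped a KO library, and KO1 stood apart from KO2. The group means were 11.2 ± 0.839 and 2.15 ± 1.39 FPKM (SD, n = 2 each), a difference of -2.03 on the log2(FPKM + 1) scale (SE 0.30, 95% interval -2.81 to -1.24, limma adjusted p = 0.102). The opposite-strand noncoding gene Otx2os1, whose span overlaps Otx2, showed the same order of groups, at 0.677 to 1.12 FPKM in WT libraries and 0.0285 to 0.213 in KO libraries. No strand setting was given, so reads of this pair cannot be fully separated.

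Lmx1a, a LIM homeodomain factor of the roof plate and the tissues derived from it (ENSMUSG00000026686, chromosome 1, 167689237 to 167848741, protein-coding), was the lowest of the 10. Its libraries read 0.802 and 0.627 FPKM in WT1, 0.862 and 0.939 in WT2, 0.110 and 0.0908 in KO1, and 0.337 and 0.336 in KO2. The groups did not overlap, yet all values were under 1 FPKM. Lmx1a reached the minimum of 0.5 FPKM in the WT animals alone, so it entered the test only through the group where it was high. Its means of 0.808 ± 0.132 and 0.218 ± 0.167 FPKM (SD, n = 2 each) differed by 3.70 times. A pseudocount of 1 reduces this to a log2 difference of -0.57 (SE 0.13, 95% interval -0.91 to -0.24, adjusted p = 0.171). The other 9 genes were at or above the minimum in all 4 animals.

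Among the secreted proteins, Enpp2 dominated. It encodes autotaxin, the secreted enzyme that produces lysophosphatidic acid (ENSMUSG00000022425, chromosome 15, 54838901 to 54952892, protein-coding). Enpp2 was at 686 and 685 FPKM in WT1, 922 and 929 in WT2, 92.4 and 92.2 in KO1, and 248 and 251 in KO2. It alone made up 85.2% to 86.9% of the summed FPKM of the 10 genes in every library, WT and KO alike. Means of 805 ± 169 and 171 ± 111 FPKM (SD, n = 2 each) gave a log2 difference of -2.38 (SE 0.47, 95% interval -3.60 to -1.16, adjusted p = 0.139). Oligodendrocytes are also known to express Enpp2, and their 10 markers summed to 2837 to 3048 FPKM in WT and 2916 to 3370 in KO libraries, overlapping ranges. Gm26684, a noncoding gene that starts beside Enpp2 on the other strand and overlaps its span, was at 0.371 to 0.820 FPKM in WT and 0.0567 to 0.174 FPKM in KO libraries. Other annotated genes overlap the spans of F5 (Gm16548 and Gm16588), Calml4 (Gm10653), Prlr (Gm21973) and Otx2 (Gm49154), with 0.193 FPKM as their highest value in any library. Gm21973 is protein-coding, on the same strand as Prlr, and read at most 4.37e-26 FPKM. How reads were split between Gm21973 and Prlr was not tested.

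Sostdc1, a secreted antagonist of BMP and Wnt signalling (ENSMUSG00000036169, chromosome 12, 36314139 to 36318452, protein-coding), was at 15.1 and 14.7 FPKM in WT1, 25.1 and 23.5 in WT2, 2.37 and 1.73 in KO1, and 5.66 and 5.88 in KO2. It had the widest gap between the WT animals of the 10, 1.63 times, and still no overlap of the groups. Means were 19.6 ± 6.65 and 3.91 ± 2.63 FPKM (SD, n = 2 each), a log2 difference of -2.14 (SE 0.42, 95% interval -3.24 to -1.05, adjusted p = 0.138).

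Lbp, the lipopolysaccharide-binding protein that hands bacterial lipid to CD14 (ENSMUSG00000016024, chromosome 2, 158306493 to 158332852, protein-coding), was at 17.2 and 16.4 FPKM in WT1, 20.1 and 19.3 in WT2, 2.27 and 2.29 in KO1, and 7.42 and 5.50 in KO2. The KO2 libraries differed from each other by more than those of any other animal for this gene, yet their limits overlapped. The log2 difference was -1.96 (SE 0.39, 95% interval -2.95 to -0.96, adjusted p = 0.136), from means of 18.2 ± 2.07 and 4.37 ± 2.95 FPKM (SD, n = 2 each).

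F5, coagulation factor V, the cofactor that speeds thrombin formation (ENSMUSG00000026579, chromosome 1, 164151838 to 164220277, protein-coding), was at 11.0 and 11.1 FPKM in WT1, 14.6 and 14.7 in WT2, 0.843 and 0.696 in KO1, and 3.37 and 3.26 in KO2. F5 had the widest span from the highest to the lowest animal, 19.1 times between WT2 and KO1, and the widest gap between the KO animals, 4.31 times. Its log2 difference was -2.31 (SE 0.43, 95% interval -3.42 to -1.21, adjusted p = 0.127), from means of 12.9 ± 2.56 and 2.04 ± 1.80 FPKM (SD, n = 2 each).

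Wfikkn2, a secreted multidomain protein that binds the growth factors GDF8 and GDF11 (ENSMUSG00000044177, chromosome 11, 94235956 to 94246005, protein-coding), had the smallest ratio of WT to KO mean FPKM, 2.42 times, although on the log2(FPKM + 1) scale Lmx1a differed less. It was at 1.91 and 2.16 FPKM in WT1, 3.31 and 3.30 in WT2, 0.877 and 0.757 in KO1, and 1.43 and 1.34 in KO2. The groups again did not overlap by value, but the deposited limits of KO2 reached those of WT1, which happened for none of the other 9 genes. Means of 2.67 ± 0.898 and 1.10 ± 0.403 FPKM (SD, n = 2 each) gave a log2 difference of -0.80 (SE 0.22, 95% interval -1.35 to -0.24, adjusted p = 0.216). WT2 exceeded KO1 by 4.04 times, where the remaining genes gave 8.65 times (Lbp) to 19.1 times (F5).

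The membrane receptors behaved like the secreted genes. Kl encodes klotho, the coreceptor through which FGF23 acts and itself shed into cerebrospinal fluid (ENSMUSG00000058488, chromosome 5, 150952607 to 150993817, protein-coding). It was second to Enpp2 in every animal, at 32.8 and 33.8 FPKM in WT1, 43.5 and 44.1 in WT2, 4.65 and 4.42 in KO1, and 11.1 and 11.2 in KO2. Its means of 38.5 ± 7.45 and 7.86 ± 4.71 FPKM (SD, n = 2 each) gave a log2 difference of -2.25 (SE 0.38, 95% interval -3.24 to -1.27, adjusted p = 0.116). Prlr, the prolactin receptor, which choroid plexus uses to bind circulating prolactin (ENSMUSG00000005268, chromosome 15, 10177238 to 10349180, protein-coding), was at 12.3 and 11.4 FPKM in WT1, 12.8 and 13.4 in WT2, 1.08 and 1.19 in KO1, and 3.46 and 2.93 in KO2. The WT animals were nearly level for Prlr, 1.11 times apart, and the KO animals were 2.82 times apart. Its log2 difference was -2.17 (SE 0.32, 95% interval -2.99 to -1.35, adjusted p = 0.0996), from means of 12.5 ± 0.912 and 2.17 ± 1.46 FPKM (SD, n = 2 each).

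Calml4, a calmodulin-like protein of epithelia (ENSMUSG00000032246, chromosome 9, 62858080 to 62875921, protein-coding), had the smallest p of the 10. It was at 16.7 and 18.7 FPKM in WT1, 20.6 and 20.9 in WT2, 1.74 and 2.18 in KO1, and 4.04 and 4.06 in KO2. The KO animals stood closer together than for most of the other genes, 2.07 times apart. Means of 19.2 ± 2.14 and 3.01 ± 1.48 FPKM (SD, n = 2 each) gave a log2 difference of -2.38 (SE 0.26, 95% interval -3.05 to -1.72, adjusted p = 0.0979), and ranked 44 by p in the whole table. The calls depended on single animals. Without KO1, Calml4, Prlr and Otx2 passed at an adjusted p of 0.0487. Without KO2, 8 genes passed, all but Wfikkn2 and Lmx1a. Without either WT animal 0 passed. Such fits take the spread of the remaining single animal from the other group. Over the alternatives run, the adjusted p of Calml4 was 0.00989 to 0.355, that of Prlr 0.00989 to 0.397 and that of Otx2 0.00989 to 0.397.

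**Figure D2:**
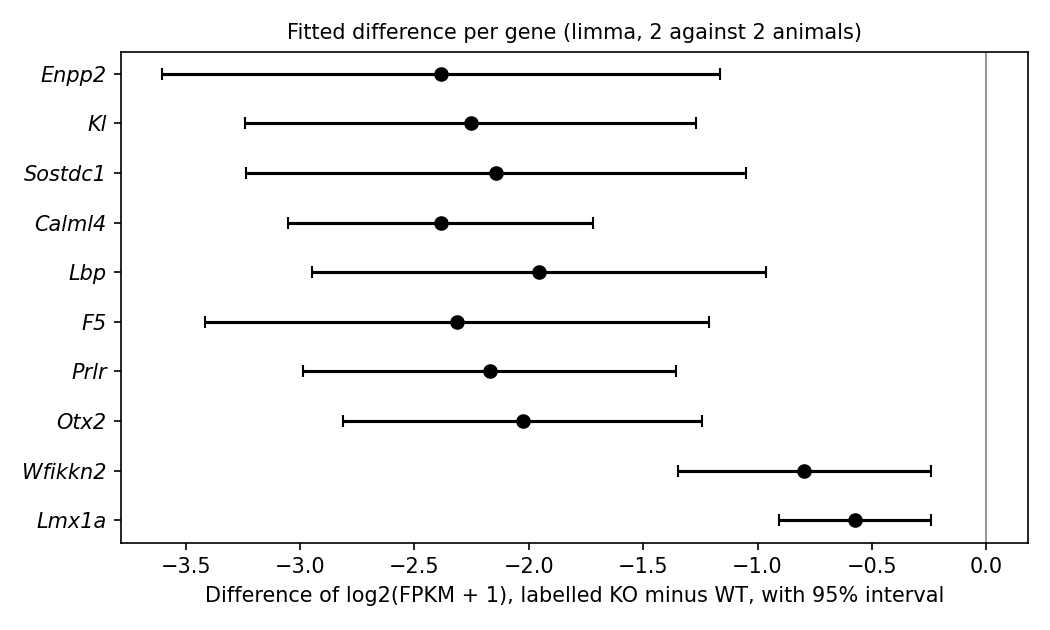
Difference of log2(FPKM + 1), labelled KO minus WT, for the 10 genes, with points for the limma estimate and bars for its 95% interval (2 against 2 animals, not adjusted for the number of genes). All 10 intervals lie below 0, and those of Wfikkn2 and Lmx1a, the least abundant genes, lie nearest to it.

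The technical replicates of an animal had overlapping deposited limits in all 40 pairs, 4 for each gene. Between animals the picture differed: the limits of both KO1 libraries lay wholly below those of both KO2 libraries for 9 of the 10 genes (not Wfikkn2), and those of KO2 wholly below those of WT1 for 9 (not Wfikkn2). WT1 lay wholly below WT2 for 5 genes, Enpp2, Kl, F5, Sostdc1 and Wfikkn2. The KO animals were further apart than the WT animals, as a ratio, for all 10 genes, with medians of 2.76 times within KO and 1.29 times within WT. The ratio of KO2 to KO1 exceeded the largest ratio between technical replicates of any animal, WT or KO, for all 10. That of WT2 to WT1 did so for only 5, not for Prlr, Otx2, Lbp, Calml4 and Lmx1a. For these genes both WT2 libraries still read above both WT1 libraries, although the deposited limits of WT1 did not lie wholly below those of WT2. For F5, Sostdc1, Lbp, Wfikkn2 and Lmx1a the step from KO1 to KO2 was larger, as a ratio, than the step from KO2 to WT1. For the other 5 the step between the groups was the larger one.

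**Figure D3:**
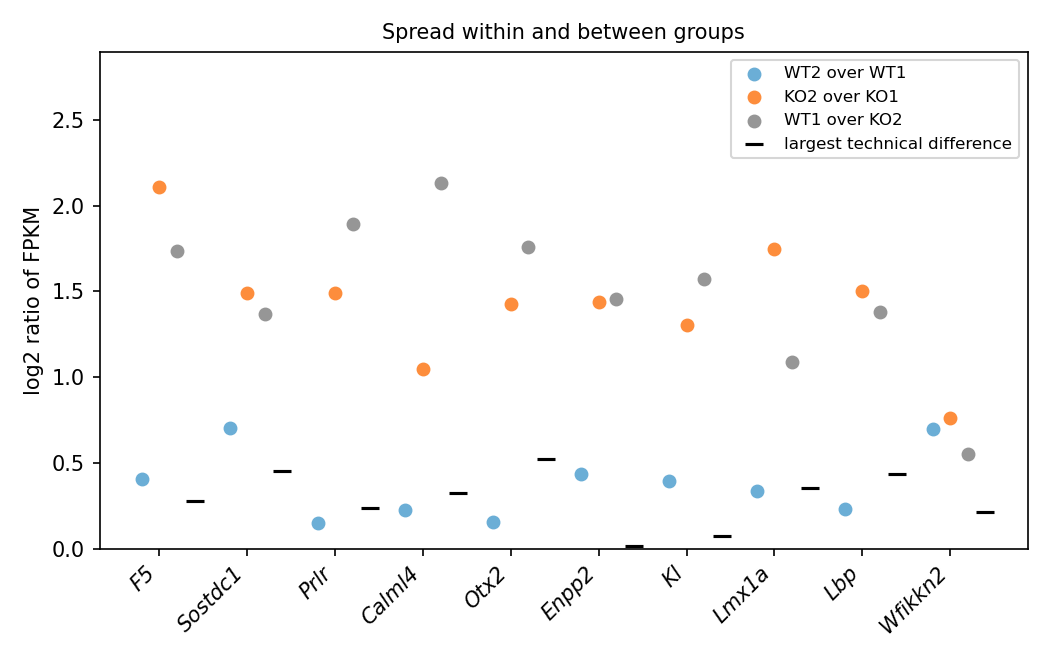
Log2 ratios of FPKM between animals for each of the 10 genes, ordered by the ratio of WT2 to KO1, with the largest ratio between technical replicates as a black bar. KO2 over KO1 exceeds WT2 over WT1 for every gene, and for 5 genes it also exceeds WT1 over KO2, the step between the groups.

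The 10 genes varied together from library to library. Pearson's r of log2(FPKM + 1) over the 8 libraries was 0.927 to 0.999 among their 45 pairs, highest for F5 with Kl and lowest for Otx2 with Wfikkn2. These libraries come from 4 animals only and share the group difference, so r describes the set and was not tested. The same holds for the genes outside the lists whose profile was most like theirs. Among 9645 such genes with a mean of at least 5 FPKM, r with the mean profile of the 10 was over 0.9 for 468. It was highest for Elovl7, a fatty acid elongase (0.997), followed by 2900040C04Rik, Slc22a17, Car12, Ecrg4, Mmp15, Atp2b3 and Mfrp (0.994 to 0.997). Car12, a carbonic anhydrase, was at 23.1 and 28.2 FPKM in WT1 and WT2 and at 7.66 and 12.4 in KO1 and KO2. Ecrg4, a secreted peptide precursor, was at 49.2 and 84.5 against 5.69 and 16.7 FPKM. Mfrp, a frizzled-related membrane protein, was at 18.5 and 21.0 against 0.953 and 4.72 FPKM. Slc22a17 was lower by far less, at 323 and 347 against 251 and 279 FPKM, although its r was 0.996. None of these 8 passed limma over all genes (adjusted p = 0.109 to 0.196).

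Other choroid plexus epithelial genes were set beside the 10 genes. Their list was written with earlier results of these data known, so its counts are description and no independent support. All 22 listed were measured and tested. Both KO animals lay below both WT animals for all 22 (30.7% of all genes). The same order of the 4 animals also held for all 22 (11.9% of all genes). Of the 22, 1 passed over all genes (0.054% of all genes did). It was Cox8b, a cytochrome c oxidase subunit isoform, lower in KO (limma adjusted p = 0.0372). Their median log2 difference was -2.13, close to the -2.16 of the 10 genes, and their summed level was 3791 to 6961 FPKM in WT libraries and 254 to 1100 in KO libraries. The most abundant were the thyroid hormone carrier Ttr, the growth factor Igf2, its binding protein Igfbp2 and the folate receptor Folr1. Ttr went from 6325 FPKM in WT2 to 180.0 in KO1, 35.1 times, more than any of the 10 genes. Igf2 and Igfbp2 spanned 7.16 and 6.56 times, and Folr1 23.5 times.

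Within each library, the ratio of a gene to the geometric mean of those 22 genes does not depend on scaling between libraries. That geometric mean was 18.3 FPKM in WT1, 24.6 in WT2, 1.998 in KO1 and 5.59 in KO2. Relative to it, Otx2, Prlr and Calml4 differed between the groups by 0.11, -0.05 and -0.10 on the log2 scale. Wfikkn2 stood out with a ratio 1.38 higher in KO (-3.03 ± 0.198 in WT and -1.65 ± 0.508 in KO, log2, SD, n = 2 each). Lmx1a followed at 0.54, Lbp at 0.41, Enpp2 at 0.28, Kl at 0.24 and Sostdc1 at 0.19. F5 was lower in KO by 0.33, a difference that rested on KO1 (-1.38), since KO2 (-0.75) was level with WT1 (-0.73) and WT2 (-0.74). The reference matters here. Against Ttr alone all 10 ratios were higher in KO, by 0.49 (F5) to 2.21 (Wfikkn2), and against Aqp1, Kcnj13, Folr1 and Clic6 all 10 were higher, by 0.16 (F5) to 1.88 (Wfikkn2). The sign for F5, Prlr and Calml4 thus turned with the reference, while Wfikkn2 had the largest ratio difference and F5 the smallest signed one under all 3.

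**Figure D4:**
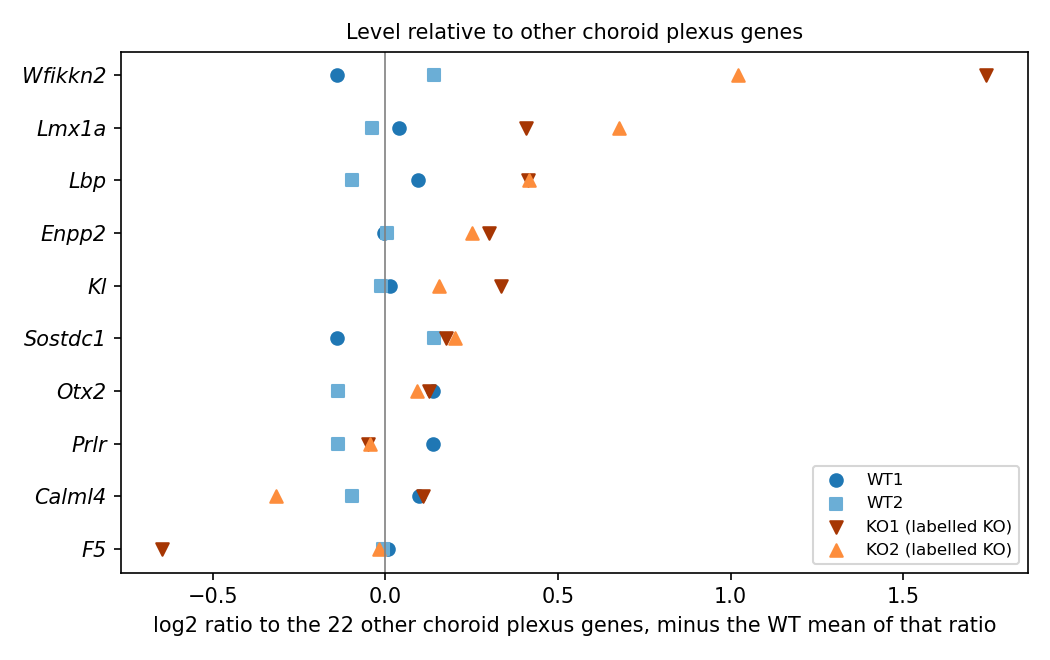
Log2 ratio of each of the 10 genes to the geometric mean of 22 other choroid plexus genes in the same library, averaged per animal and shown as the distance from the WT mean of that ratio. Most points lie within 0.5 of 0, Wfikkn2 lies further to the right in both animals labelled KO, and F5 lies to the left in KO1.

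Neighbouring tissues were read from marker lists in the same animals. Ependymal and motile cilia genes were all tested (12 of 12), with a median log2 difference of -0.67. Both KO animals lay below both WT animals for 11 (30.7% of all genes), 0 passed over all genes (0.054% of all genes), and 8 had an unadjusted p under 0.05 in the lower direction (11.4% of all genes). The summed level was 85.4 to 98.9 FPKM in WT and 36.6 to 64.8 FPKM in KO. Its most abundant genes were Rarres2, Ccdc153, Rsph1 and Foxj1, and Foxj1, the master factor of motile cilia, read 10.41 FPKM in WT1 and 9.998 in WT2, against 4.33 in KO1 and 7.12 in KO2. Unlike the 10 choroid plexus genes, Foxj1 was not higher in WT2 than in WT1. Blood genes, 5 of 5 tested, had a median of -0.95. All 5 were lower in both KO animals (30.7% of all genes). Hba-a1 and Hba-a2 passed (limma adjusted p = 0.0372 and 0.0373), where 0.054% of all genes did. As the alpha-globin copies are near identical, how their reads were split is uncertain. Blood genes summed to 284 to 318 FPKM in WT and 149 to 158 FPKM in KO. Here KO1 and KO2 were nearly level, at 37.2 and 38.8 FPKM for Hba-a1, whereas each of the 10 genes differed between them by 1.70 to 4.31 times. The part of these tissues in the result was not tested.

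Meningeal fibroblast genes (10 of 12 tested) had a median of -0.33, with both KO animals below for 4, where 30.7% of all genes were, and a summed level of 41.5 to 63.7 FPKM in WT and 30.8 to 46.2 FPKM in KO. Their most abundant gene, the matrix proteoglycan gene Dcn, was at 21.5 and 35.0 FPKM in WT and 10.1 and 29.5 in KO1 and KO2, so its groups overlapped. Endothelial and mural genes (11 of 11) had a median of -0.07 and sums of 57.1 to 62.5 against 52.5 to 59.7 FPKM. Astrocyte genes (7 of 7) had a median of -0.02 and sums of 570 to 616 against 608 to 644 FPKM. Microglial genes (6 of 6) had a median of 0.08 and sums of 92.8 to 105 against 95.4 to 110 FPKM. Oligodendrocyte genes (10 of 10) had a median of 0.09. Excitatory neuron genes (9 of 9) had a median of 0.14, and sums of 1340 to 1457 against 1542 to 1604 FPKM, with both KO animals above both WT animals for 4, where 18.4% of all genes were. Both KO animals also lay above for 4 oligodendrocyte, 3 microglial and 2 astrocyte genes. They lay below for 5 endothelial and mural, 2 astrocyte and 1 oligodendrocyte genes, where 30.7% of all genes were. The median changed sign with scaling for astrocyte genes (0.01 after median-of-ratios scaling) and endothelial and mural genes (0.03 after quantile normalization). Of the genes in these 6 lists, 0 passed limma over all genes, where 0.054% of all genes did. At an unadjusted p under 0.05 they held 3, 2, 2, 0, 0 and 0 lower genes and 0, 0, 1, 1, 1 and 2 higher ones, in the order given. Over all genes tested, 11.4% were lower and 4.11% higher at that level, and the difference of the lists from these shares was not tested.

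**Figure D5:**
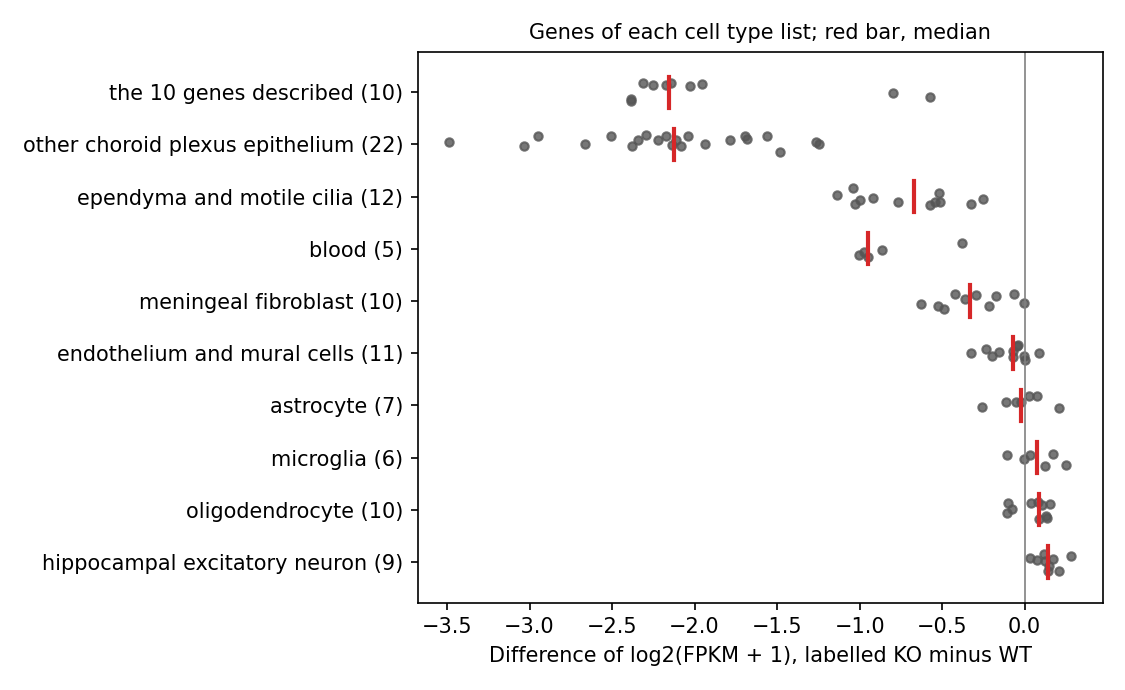
Difference of log2(FPKM + 1), labelled KO minus WT, for each tested gene (grey points, spread vertically for visibility) of 10 lists, with the list median in red and the number of genes in brackets. Medians are -2.16 for the 10 genes described and -2.13 for the other choroid plexus genes. Of the 10, Wfikkn2 (-0.80) and Lmx1a (-0.57) lie nearest to 0. Ependymal and blood genes have medians of -0.67 and -0.95, and the other medians lie between -0.33 and 0.14.

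The partners through which the secreted factors and receptors act were examined by lists. No gene of the pathway lists described here passed limma over all genes, where 0.054% of all genes did. All had to reach 0.5 FPKM in 2 animals to be tested. Each count of genes with both KO animals below is to be read against 30.7% of all genes, and the difference from that share was not tested. For autotaxin, 6 of 9 lysophosphatidic acid receptors and lipid phosphatases were tested, with a median of -0.07 and both KO animals below for 2. Plpp3, a lipid phosphatase that degrades lysophosphatidic acid, was at 78.7 and 76.2 FPKM in WT and 76.99 and 76.64 in KO1 and KO2, and the receptor gene Lpar1 was at 10.7 and 10.1 against 10.1 and 8.83 FPKM. For klotho, 3 of 9 were tested, with a median of 0.02. Fgfr1, a receptor that klotho joins, was at 37.2 and 35.7 against 35.7 and 38.3 FPKM. Fgfr2, the only one with both KO animals below, was at 19.9 and 19.7 against 14.9 and 16.7 FPKM. Klb and Fgf23 were under 0.5 FPKM in every animal.

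For factor V, 4 of 11 coagulation genes were tested, with a median of -0.13 and both KO animals below for 2, Pros1 and Tfpi. F3, tissue factor, was at 20.7 and 20.6 FPKM in WT and 22.6 and 18.7 in KO1 and KO2. Thrombin itself, F2, was under 0.5 FPKM in every animal, and Proc was listed at 0 in every library. For Lbp, 4 of 6 genes of lipopolysaccharide recognition were tested, with a median of -0.07 that became 0.02 after quantile normalization. Myd88, the adaptor of most Toll-like receptors, was at 2.22 and 2.12 FPKM in WT and 2.14 and 2.09 in KO1 and KO2. Cd14 was at 1.04 and 1.18 against 1.13 and 0.815 FPKM, with overlapping groups. For Wfikkn2, 6 of 9 genes of GDF8 and GDF11 signalling were tested, with a median of 0.02. Acvr1b, a type I receptor gene and the most abundant, was at 25.6 and 24.5 FPKM in WT and 25.9 and 26.4 in KO1 and KO2. The ligand gene Gdf11 was at 6.94 and 6.64 against 6.17 and 6.27 FPKM, the only one of the 6 with both KO animals below. Mstn, which encodes GDF8, was under 0.5 FPKM in every animal.

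For Sostdc1, 9 of 10 BMP and Wnt genes were tested, with a median of -0.18 and both KO animals below for 6. The abundant receptor gene Bmpr2 was at 13.3 and 13.2 FPKM in WT and 13.8 and 13.8 in KO1 and KO2. Bmp6, a ligand picked after its values were seen, was at 5.29 and 6.27 against 1.86 and 1.93 FPKM (log2 difference -1.22, SE 0.09, limma adjusted p = 0.0529). For Prlr, 7 of 8 genes of prolactin signalling were tested, with a median of -0.22 and both KO animals below for 5. Socs2, a suppressor of cytokine signalling and the most abundant, was at 8.94 and 10.1 FPKM in WT and 6.90 and 8.88 in KO1 and KO2. Jak2, the kinase bound to the receptor, was at 6.88 and 7.41 against 7.39 and 6.69 FPKM, with overlapping groups. Cish, a feedback inhibitor induced through STAT5 and also picked after its values were seen, was at 3.20 and 4.24 against 1.06 and 1.67 FPKM (WT mean 2.72 times the KO mean, adjusted p = 0.116). Of 10 homeobox and roof plate relatives of Otx2 and Lmx1a, 3 were tested, with a median of 0.00. Lhx2, a LIM homeobox gene and the most abundant, was at 24.98 and 24.98 FPKM in WT and 28.3 and 29.7 in KO1 and KO2, higher in both KO animals (log2 difference 0.21, SE 0.04, adjusted p = 0.149). Otx1 was at 1.22 and 1.59 against 1.40 and 1.42 FPKM, with overlapping groups. Msx1, a dorsal midline homeobox gene, was at 8.75 and 11.2 against 2.38 and 4.55 FPKM (log2 difference -1.33, SE 0.25, adjusted p = 0.131). Lmx1b and Crx were under 0.5 FPKM in every animal.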

How the data were processed

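RNA from hippocampus was sequenced in 8 libraries, 2 technical replicates of each of 4 numbered units, per the labels. Each unit was taken as 1 animal. The authors deposited 1 gene table per library with FPKM, confidence limits and a status, per the file headers. Of tools and builds, the submitters' processing notes list mm10, Bowtie (version 1) and HISAT without a role, and the program that computed FPKM is not given in the sources used here. Repeated rows of a gene (53) were summed, and 12 values with a status other than OK, none in the genes described, were treated as missing. Whole fragment numbers were not recovered: the number implied by the limits was whole, within 0.05, for 30.8% to 34.3% of genes under 20 fragments.

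FPKM was averaged per animal. Those reaching 0.5 FPKM in 2 or more animals were tested as log2(FPKM + 1), KO minus WT, with limma 3.58.1 (trended variance, R 4.3.3) over all genes with Benjamini-Hochberg adjustment at 0.05. The pseudocount understates changes of low genes. The procedure was tested on simulated data. Gene types and overlaps are from GENCODE M21, whose coordinates matched the deposited ones for all 10 genes, and promoters are from RefSeq (GRCm38.p6). Examples were taken from the 4 genes of highest mean FPKM in each list. Exceptions were genes under the minimum, Cox8b, named because it passed, and genes said to be picked after their values were seen. Genes, lists and tests were chosen with earlier results of these data known. Figures used matplotlib 3.10.9. One list of relatives of these genes is not reported here.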

Additional observations from a re-analysis of the deposited data

How the results depend on the processing

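Each of the 10 genes stayed lower under the KO label, with no overlap between the groups, under every alternative that tested it, and their median log2 difference was -2.69 to -1.62. Lmx1a dropped out with a minimum of 1 FPKM and without either WT animal. The call count of 0 among the 10 became 1 with second technical replicates only (Calml4), and 0 to 8 with 1 animal left out. With the animal number as a replicate block it became 8, all but Lbp and Lmx1a. The labels do not tie equal numbers together (deviations of WT1 and KO1 correlated at 0.107 across genes), so the block stands as an alternative only. Over all genes the 9 calls became 14 with a pseudocount of 0.1, 19 and 35 with first or second technical replicates only, 184 with the block, 1 without a variance trend, 0 with no filter (3741 at an unadjusted p under 0.05) and 0 to 224 with 1 animal left out. Without the first library of KO1, chosen after seeing the data because its table had the lowest FPKM sum and 2 values with a high-data status, there were 20, with 0 of the 10 genes. The causes were not tested. Of genes with an unadjusted p under 0.05, 73.6% were lower in KO as deposited, 54.2% after median-of-ratios scaling and 53.3% after quantile normalization. Precision for Lmx1a and Wfikkn2 is limited by low values, and 2 animals a group limit every test.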
